A study of Mus musculus with 16 samples.

Results

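The 40 genes described here encode the machinery of autophagy and the lysosome. They were taken by exact match of the gene name to a list, and all 40 were found among the 25803 genes of the deposited tables. By role they are 3 genes of the initiation kinase complex, 3 of the class III phosphatidylinositol 3-kinase complex, 4 of membrane growth, 6 of the conjugation machinery, 5 ATG8 proteins, 2 cargo receptors, 2 transcription factors, 3 proteins of the lysosomal membrane, 9 lysosomal hydrolases and 3 subunits of the proton pump (V-ATPase).

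The study measured RNA in livers of male mice that ate a high-fat diet (HFD) for 12 weeks, and by its title it concerns hepatic CPT1a and plasma cholesterol. There were 4 groups of 4 libraries each. Fasted control and fasted LKO mice were killed after a 16 h fast, and refed control and refed LKO mice after the same fast followed by 6 h of refeeding. LKO denotes loss in the liver of Cpt1a, the gene of carnitine palmitoyltransferase 1A, which passes long-chain fatty acids into mitochondria for oxidation. The controls are called WT in the design text and Control in the sample labels, and how the deletion was made is not given in the sources used here. The sample labels number 4 samples per group without saying that each was a separate mouse, so the p-values below measure the spread between these libraries.

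Autophagy encloses cytoplasm in a double membrane and delivers it to the lysosome, where hydrolases working at acid pH break it down. In liver it is known as a fasting pathway that supplies amino acids and, by way of lipid droplets, fatty acids, and it is held down by insulin and mTORC1 after a meal. The transcription factors TFEB and TFE3 are known activators of lysosome and autophagy genes and are themselves controlled mainly by where they lie in the cell, which RNA does not show. RNA levels are likewise no measure of autophagic flux.

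Library totals ran from 14721601 to 24618230 counts, and every member had at least 100 counts in every library. Cpt1a, the targeted gene, stood at 487 ± 83.2 CPM in fasted control and 101 ± 17.3 in fasted LKO livers, and at 457 ± 137 and 54.2 ± 16.6 CPM in the refed state (SD, n = 4). CPM is counts per M (mega) counts of a library after scaling by the trimmed mean of M values (TMM). The 8 hepatocyte markers examined summed to between 69321 and 101919 CPM in every library. The labels name no batch, and none could be checked.

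Per length, the members spanned a wide range of levels. Lamp1, a heavily glycosylated membrane protein that lines the lysosome, averaged 247 CPM per kb of gene length over the 16 libraries. The ATG8 protein gene Gabarapl1 averaged 245 CPM per kb and the protease gene Ctsz 229 CPM per kb. Next came the cargo receptor gene Sqstm1 at 185 and the ATG8 protein gene Gabarap at 141 CPM per kb. The order at the top differed between the groups. Gabarapl1 led when fasted, at 335 CPM per kb in control and 321 in LKO, and each of its fasted libraries lay above every Lamp1 and Ctsz library of its group. Sqstm1 came second in fasted LKO at 263 CPM per kb, and its libraries overlapped those of Gabarapl1, Lamp1 and Ctsz there. When refed, Lamp1 led at 251 CPM per kb in control and 230 in LKO, and Gabarapl1 was the third at 152 and 170 CPM per kb. The refed libraries of Gabarapl1 lay below those of Lamp1 in control and overlapped them in LKO, and they overlapped those of Ctsz in both. At the low end of the mean over all libraries stood Wipi1, which binds the lipid made by the class III kinase, at 2.22 CPM per kb, Tfeb at 2.36, Atg14 at 2.92 and Tfe3 at 3.14 CPM per kb. Both transcription factors thus lay among the lowest members per length, although each was counted in every library.

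**Figure D1:**
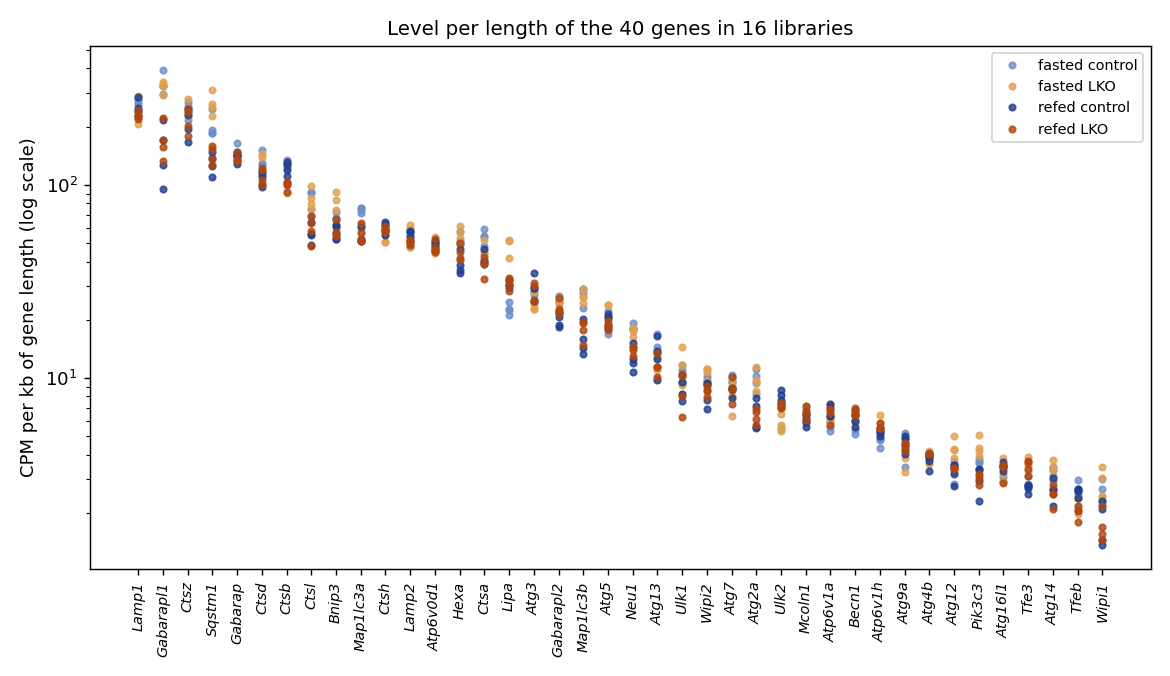
CPM per kb of gene length (log scale) of each of the 40 genes in the 16 libraries, with genes ordered by their mean and libraries coloured by group. By the mean over all libraries Lamp1, Gabarapl1 and Ctsz lead at 247, 245 and 229 CPM per kb and Wipi1 is lowest at 2.22, while Gabarapl1 leads in both fasted groups and is the third in both refed groups.

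TFEB and TFE3 bind a site called the CLEAR element, built around the E-box CACGTG, so this motif was looked for in the members' promoters. RefSeq promoter windows of assembly GRCm38.p6, from 250 bases before to 50 after a gene's start, matched 32 of the 40 genes by symbol and gave 36 windows, with more than 1 window for Tfeb, Tfe3 and Ctsa. The E-box CACGTG, which reads the same on both strands, occurred in 12 of the 36 windows (33.3%) and in 2349 of all 32851 windows in the table (7.15%). The longer CLEAR palindrome, which adds GT before and AC after the E-box, occurred in 0 of the 36 windows and in 107 of all windows (0.326%). The intermediate TCACGTGA, added after that 0 was seen, occurred in 6 of the 36 (16.7%) and in 320 of all windows (0.974%). Both longer words contain the E-box, so the 3 counts overlap, and a match describes letters, not a bound site. The count over all windows was not restricted to genes expressed in liver, and windows were not matched for base composition. The 12 genes were Atg14, Atg3, Atg5, Atg7, Bnip3, Mcoln1, Lamp1, Ctsa, Ctsd, Ctsl, Atp6v0d1 and Atp6v1a. Becn1, Pik3c3, Atg12, Atg16l1, Map1lc3a, Ctsb, Ctsh and Atp6v1h had no window in the table.

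The windows below run from 170 bases before to 30 after the start, 5′ to 3′, in coordinates of GRCm38.p6, with each CACGTG in capitals. The first 4 show how differently the E-box is placed among genes that hold it, with 4 copies in Lamp1, 2 in the lysosomal calcium channel gene Mcoln1 and 1 each in these stretches of the aspartic protease gene Ctsd and of Atg14. The other four belong to genes on which the results below turn, and their full windows hold none.
Lamp1 (chr8:13158991-13159190, plus strand): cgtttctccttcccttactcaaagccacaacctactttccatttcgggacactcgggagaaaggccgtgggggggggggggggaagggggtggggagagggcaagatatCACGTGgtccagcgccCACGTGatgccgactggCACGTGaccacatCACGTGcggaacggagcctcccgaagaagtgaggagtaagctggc
Mcoln1 (chr8:3500349-3500548, plus strand): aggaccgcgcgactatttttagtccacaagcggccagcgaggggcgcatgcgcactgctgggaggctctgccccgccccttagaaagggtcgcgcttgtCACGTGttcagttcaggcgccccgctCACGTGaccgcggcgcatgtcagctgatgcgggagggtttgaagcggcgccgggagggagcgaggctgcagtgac
Ctsd (chr7:142387798-142387997, minus strand): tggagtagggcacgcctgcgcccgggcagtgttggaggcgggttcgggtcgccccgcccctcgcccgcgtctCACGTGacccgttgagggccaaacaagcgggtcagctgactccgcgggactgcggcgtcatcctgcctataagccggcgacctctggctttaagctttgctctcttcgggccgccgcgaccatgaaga
Atg14 (chr14:47568405-47568604, minus strand): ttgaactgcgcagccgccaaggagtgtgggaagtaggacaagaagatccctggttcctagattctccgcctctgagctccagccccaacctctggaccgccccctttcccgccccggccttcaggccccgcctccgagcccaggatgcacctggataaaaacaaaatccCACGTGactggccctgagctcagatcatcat
Gabarapl1 (chr6:129533022-129533221, plus strand): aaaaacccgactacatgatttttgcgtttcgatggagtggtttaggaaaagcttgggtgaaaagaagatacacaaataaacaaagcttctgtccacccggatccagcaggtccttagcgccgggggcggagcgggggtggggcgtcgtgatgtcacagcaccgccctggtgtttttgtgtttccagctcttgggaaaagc
Map1lc3b (chr8:121590268-121590467, plus strand): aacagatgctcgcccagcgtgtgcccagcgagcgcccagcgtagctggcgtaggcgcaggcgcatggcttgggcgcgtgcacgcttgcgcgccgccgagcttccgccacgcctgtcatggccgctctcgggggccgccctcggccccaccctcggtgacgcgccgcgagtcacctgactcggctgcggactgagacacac
Sqstm1 (chr11:50210791-50210990, minus strand): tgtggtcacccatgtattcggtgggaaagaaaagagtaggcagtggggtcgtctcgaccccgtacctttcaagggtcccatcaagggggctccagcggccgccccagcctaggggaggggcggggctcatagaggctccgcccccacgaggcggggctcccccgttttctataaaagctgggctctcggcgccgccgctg
Lipa (chr19:34527445-34527644, minus strand): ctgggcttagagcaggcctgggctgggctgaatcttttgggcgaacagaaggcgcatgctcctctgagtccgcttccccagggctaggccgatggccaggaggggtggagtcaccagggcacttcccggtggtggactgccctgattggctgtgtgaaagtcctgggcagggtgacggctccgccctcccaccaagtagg

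The first comparison asked how the genotypes differed after a fast. In fasted LKO livers Lipa, Atg12, Tfe3 and Atp6v1h were higher and Map1lc3a was lower than in fasted control, and the other 35 members did not pass. A gene was called at a Benjamini-Hochberg adjusted p under 0.05 in edgeR's quasi-likelihood test over all 14488 genes tested, and every adjusted p below is from that fit unless another tool is named. The 4 members called higher and 1 called lower compare with 5.75% of all genes tested called higher and 6.48% called lower, and the members' own shares were 10% and 2.5%. The median log2 fold change was 0.00 over the members and 0.02 over all genes tested. Without S40 or without S47 the number of members called lower was 2.

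Lipa encodes lysosomal acid lipase, which releases fatty acids and cholesterol from lipids delivered to the lysosome, and it had the largest genotype difference among the 40 genes. The gene (ENSMUSG00000024781) lies on chromosome 19 from 34469718 to 34504874 in the deposited tables. Controls (S40 to S43, fasted) had 143, 168, 153 and 155 CPM of Lipa, whereas LKO livers (S44 to S47, fasted) had 351, 221, 348 and 283 CPM. The groups did not overlap, and the spread was wider in LKO, where S45 was lowest. Lipa was 1.94-fold higher in fasted LKO (301 ± 62.0 against 155 ± 10.1 CPM, SD, n = 4; log2 fold change 0.96, SE 0.12, adjusted p = 2.38e-04). The call held in each of the 15 alternative fits, with log2 fold changes from 0.88 to 1.07.

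In the refed state the same gene showed no such gap. Lipa was counted at 216, 204, 205 and 198 CPM after refeeding in control (S48 to S51) and at 214, 223, 204 and 190.5 CPM after refeeding in LKO (S52 to S55), so the groups overlapped. Their means were 206 ± 7.50 and 208 ± 14.1 CPM (SD, n = 4; log2 fold change 0.01, SE 0.12, adjusted p = 0.971). In bulk tissue a change in the number of cells that carry an RNA and a change in RNA per cell cannot be told apart.

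**Figure D2:**
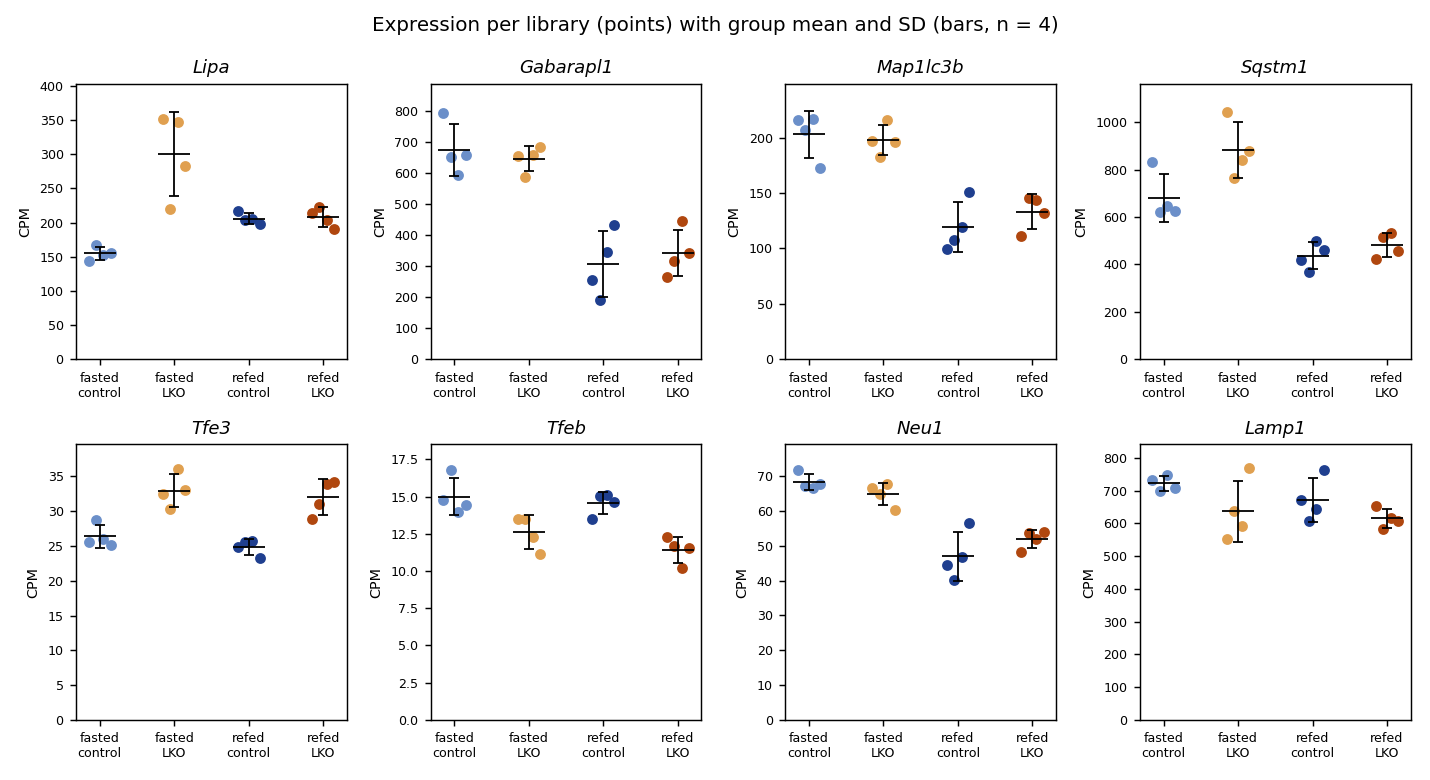
CPM of 8 members in each library (points) with the group mean and SD (bars, n = 4), on axes that start at 0. Lipa runs from 221 to 351 CPM in fasted LKO and from 190.5 to 223 CPM in refed LKO, Gabarapl1, Map1lc3b, Sqstm1 and Neu1 are lower in both refed groups, and Lamp1 overlaps between the groups in each of the 4 comparisons.

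Among the genes that build the autophagosome, Atg12, the small protein that is joined to ATG5, was counted at 21.7, 25.2, 27.0 and 28.4 CPM in fasted control and at 29.6, 32.9, 32.5 and 38.3 CPM in fasted LKO. The LKO libraries all lay above the controls (log2 fold change 0.38, SE 0.10, adjusted p = 0.021). Atg12 lost this call without S40, S41 or S47, with adjusted p up to 0.0705, and in the fit of only the groups compared (0.055). Map1lc3a, an ATG8 protein that is attached to the autophagosome membrane, went the other way. It held 84.6, 87.1, 89.9 and 89.9 CPM in fasted control and 71.8, 66.9, 73.4 and 71.9 CPM in fasted LKO, without overlap (log2 fold change −0.31, SE 0.08, adjusted p = 0.0174). The other 4 ATG8 genes had log2 fold changes from −0.13 to −0.02 and did not pass.

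Atp6v1h, a regulatory subunit of the V-ATPase that acidifies the lysosome, stood at 46.8, 47.6, 46.3 and 42.1 CPM in fasted control and at 62.2, 54.3, 57.2 and 52.5 CPM in fasted LKO. The groups did not overlap (log2 fold change 0.31, SE 0.07, adjusted p = 0.00748). Of the other pump subunits, Atp6v1a held 31.9, 33.4, 38.0 and 35.5 CPM against 36.6, 35.9, 35.9 and 44.3 CPM and overlapped (0.14, SE 0.09, adjusted p = 0.362). Atp6v0d1, of the membrane sector, had a log2 fold change of −0.04.

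The 2 transcription factors had genotype log2 fold changes of opposite sign. Tfe3 (ENSMUSG00000000134, chromosome X from 7628799 to 7641441) stood at 25.5, 28.8, 26.0 and 25.2 CPM in fasted control and at 32.4, 30.3, 36.0 and 33.0 CPM in fasted LKO. In the refed state it stood at 24.8, 25.6, 25.7 and 23.2 CPM in control and at 28.9, 31.1, 33.9 and 34.3 CPM in LKO. Every LKO library lay above every control library of its state. The log2 fold change was 0.32 when fasted (SE 0.08, adjusted p = 0.0143) and 0.37 when refed (SE 0.08, adjusted p = 0.0175). The fasted call was lost without S46 (adjusted p = 0.0515) and the refed call without S48, S54 or S55 (up to 0.0684).

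Tfeb (ENSMUSG00000023990, chromosome 17 from 48047955 to 48103344) was lower in LKO. It held 14.8, 16.8, 14.0 and 14.5 CPM in fasted control and 13.5, 13.5, 12.3 and 11.1 CPM in fasted LKO, which did not overlap and did not pass (log2 fold change −0.25, SE 0.09, adjusted p = 0.0905). In the refed state it held 13.5, 15.03, 15.1 and 14.7 CPM in control and 12.3, 11.7, 10.2 and 11.5 CPM in LKO. This difference passed narrowly (log2 fold change −0.35, SE 0.09, adjusted p = 0.0485) and was lost in each of the 8 fits that left out 1 refed library (adjusted p up to 0.128). It was also lost under RLE size factors (0.052), with no filter on low counts (0.12) and in the fit of only the groups compared (0.078). Neither factor passed between fasted and refed livers of a genotype (adjusted p from 0.333 to 0.799).

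Tfe3 and Tfeb were the only members called in the refed genotype comparison. The 1 higher and 1 lower compare with 2.28% of all genes called higher and 1.35% called lower, and 1 of 40 members is 2.5%. The median log2 fold change of the members was 0.02, against −0.01 over all genes tested.

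**Figure D3:**
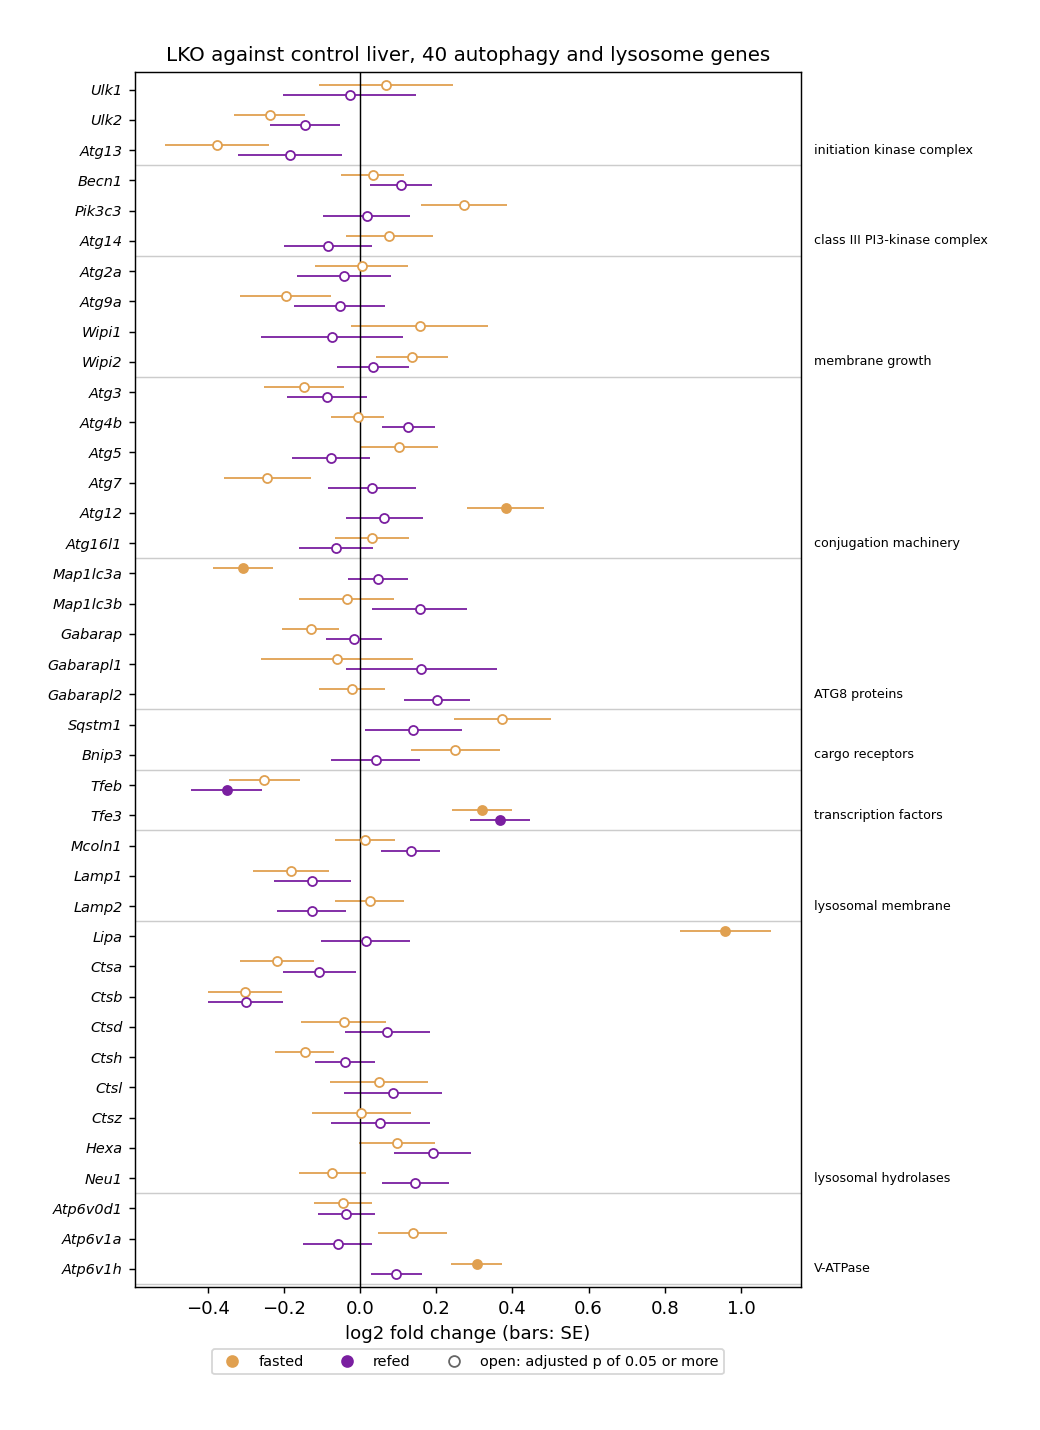
Log2 fold change of LKO against control (bars, SE) for each of the 40 genes in the fasted and the refed state, grouped by role, with filled points for an adjusted p under 0.05. Filled points are Atg12, Map1lc3a, Tfe3, Lipa and Atp6v1h when fasted and Tfe3 and Tfeb when refed, with Lipa at 0.96 the farthest from 0.

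Several members that did not pass lay near the threshold in the fasted comparison. Sqstm1 (p62, a receptor that ties ubiquitinated cargo to ATG8 proteins) stood at 831, 622, 646 and 625 CPM in fasted control and at 1044, 766, 843 and 878 CPM in fasted LKO. Library S40 stood above S45, so the groups overlapped (log2 fold change 0.37, SE 0.13, adjusted p = 0.0645). The difference passed without S40 (0.48, adjusted p = 0.0269), without S45 (0.43, adjusted p = 0.0457) and with DESeq2 on all libraries (0.37, adjusted p = 0.034). Atg13, of the initiation complex, held 59.9, 62.9, 73.4 and 58.6 CPM against 43.1, 49.8, 47.6 and 55.9 CPM without overlap (−0.38, SE 0.14, adjusted p = 0.0836). In the fit of only the groups compared Atg13 passed (−0.38, adjusted p = 0.045). Ctsb, a lysosomal cysteine protease, had a log2 fold change of −0.30 in both states (adjusted p = 0.0534 and 0.0974). In the fasted state Ctsb passed without S47 (−0.41, adjusted p = 0.00663), and both states passed with DESeq2 (adjusted p = 0.0148 and 0.0382). The fasted difference of Ctsb also passed under RLE size factors (adjusted p = 0.0495), the filter at a mean of 5 CPM (0.0446) and limma-voom (0.0384). The span of Ctsb overlaps Fdft1 on the opposite strand, which averaged 113 CPM against 688 CPM for Ctsb.

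Lamp1 and Lamp2, the main membrane proteins of the lysosome, did not pass in any comparison. Lamp1 held 734, 699, 748 and 709 CPM in fasted control, 552, 637, 592 and 768 in fasted LKO, 670.2, 608, 643 and 764 in refed control and 653, 584, 616 and 609 CPM in refed LKO. Lamp2 held 456, 514, 563 and 541 CPM in fasted control, 455, 561, 508 and 587 in fasted LKO, 491, 518, 541 and 551 in refed control and 495, 464, 489 and 477 CPM in refed LKO. Each pair of compared groups overlapped for both genes. Mcoln1, the third gene of the lysosomal membrane, ranged from 42.2 to 53.96 CPM over all libraries.

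Some cell type markers, of hepatocytes and of other cells, were also called between the genotypes. The 8 hepatocyte markers summed to 82797 to 92560 CPM in fasted control and 69321 to 81343 CPM in fasted LKO, and 2 of the 8, Ttr and Asgr1, were called lower. In the refed state they summed to 81126 to 101919 CPM in control and 71971 to 85797 CPM in LKO, with 0 of 8 called by edgeR (4 at an unadjusted p under 0.05). The lymphocyte and plasma cell list summed to 4.13 to 8.14 CPM in the control groups and 14.3 to 39.7 CPM in the LKO groups, and 1 of its 6 tested genes, Jchain, was called higher in both states. The adipocyte list summed to 9.81 to 58.1 CPM in fasted control and 0.448 to 9.63 CPM in fasted LKO, with its 1 tested gene, Cfd, called lower. Cholangiocyte markers summed to 6.05 to 45.9 CPM in fasted LKO, against 4.14 to 8.59 CPM in fasted control, with 0 of 4 called by edgeR (1 at an unadjusted p under 0.05). Of the 4 stellate or fibroblast markers Dcn was called higher in fasted LKO, with sums of 127 to 203 CPM in fasted control and 152 to 204 CPM in fasted LKO. Of the 4 endothelial markers Clec4g was called higher in refed LKO, with sums of 79.6 to 112 CPM in refed control and 89.8 to 119 CPM in refed LKO. The other 3 had negative log2 fold changes there, and the median of the 4 was −0.07.

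Macrophages carry much lysosomal RNA, and their markers were compared in the same way. The 8 resident macrophage markers summed to 243 to 455 CPM in fasted control and 309 to 444 CPM in fasted LKO, and to 210 to 818 CPM in refed control and 222 to 324 CPM in refed LKO. In each of the 5 comparisons 0 of the 8 were called by edgeR (6 at an unadjusted p under 0.05 in the refed genotype comparison and 0 in the others), and in the refed state all 8 had a negative log2 fold change in LKO (median −0.94). Of the recruited macrophage list, 1 of 8 genes, Ly6c2, was called higher in refed LKO. In that comparison 4 of the 8 had a positive and 4 a negative log2 fold change. The list summed to 108 to 180 CPM in refed control and 88.9 to 133 CPM in refed LKO. No list had a gene at 0 throughout a group except Retnlg of the neutrophil list in refed LKO and Adipoq in refed control. The part of these markers in the members' differences was not tested.

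The second question was how these genes differed between fasted and refed livers of each genotype. Refed livers followed the same fast plus 6 h, so feeding and the 6 h of added time cannot be told apart. After 6 h of refeeding, ATG8 genes, Sqstm1, Atg2a and several hydrolase genes were lower than after the fast, in both genotypes, while the 6 conjugation genes and 3 V-ATPase genes gave 1 call between them, Atg12 in LKO. In control livers 10 members fell and 1 rose, beside 7.65% of all genes tested called lower and 7.79% called higher. In LKO livers 14 members fell and 1 rose, beside 8.78% called lower and 9.28% called higher. The 10 and 14 are 25% and 35% of the 40 members. The members were chosen with earlier results of these data known, so these shares are descriptive only. The number that fell in LKO was 9 without S52, and the single rises, Lipa in control and Ulk2 in LKO, were each lost without some libraries. The members' median log2 fold change was −0.13 in control and −0.14 in LKO, against 0.01 and −0.02 over all genes tested.

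In both genotypes 7 genes fell, namely Atg2a, Map1lc3b, Gabarapl1, Sqstm1, Ctsl, Hexa and Neu1. These 7 are 70% of the 10 that fell in control and 50% of the 14 that fell in LKO. The fasted and refed groups of the 2 genotypes share no library, but both comparisons come from the same fit with a shared estimate of the spread. The same overlap over all genes tested was not counted.

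**Figure D4:**
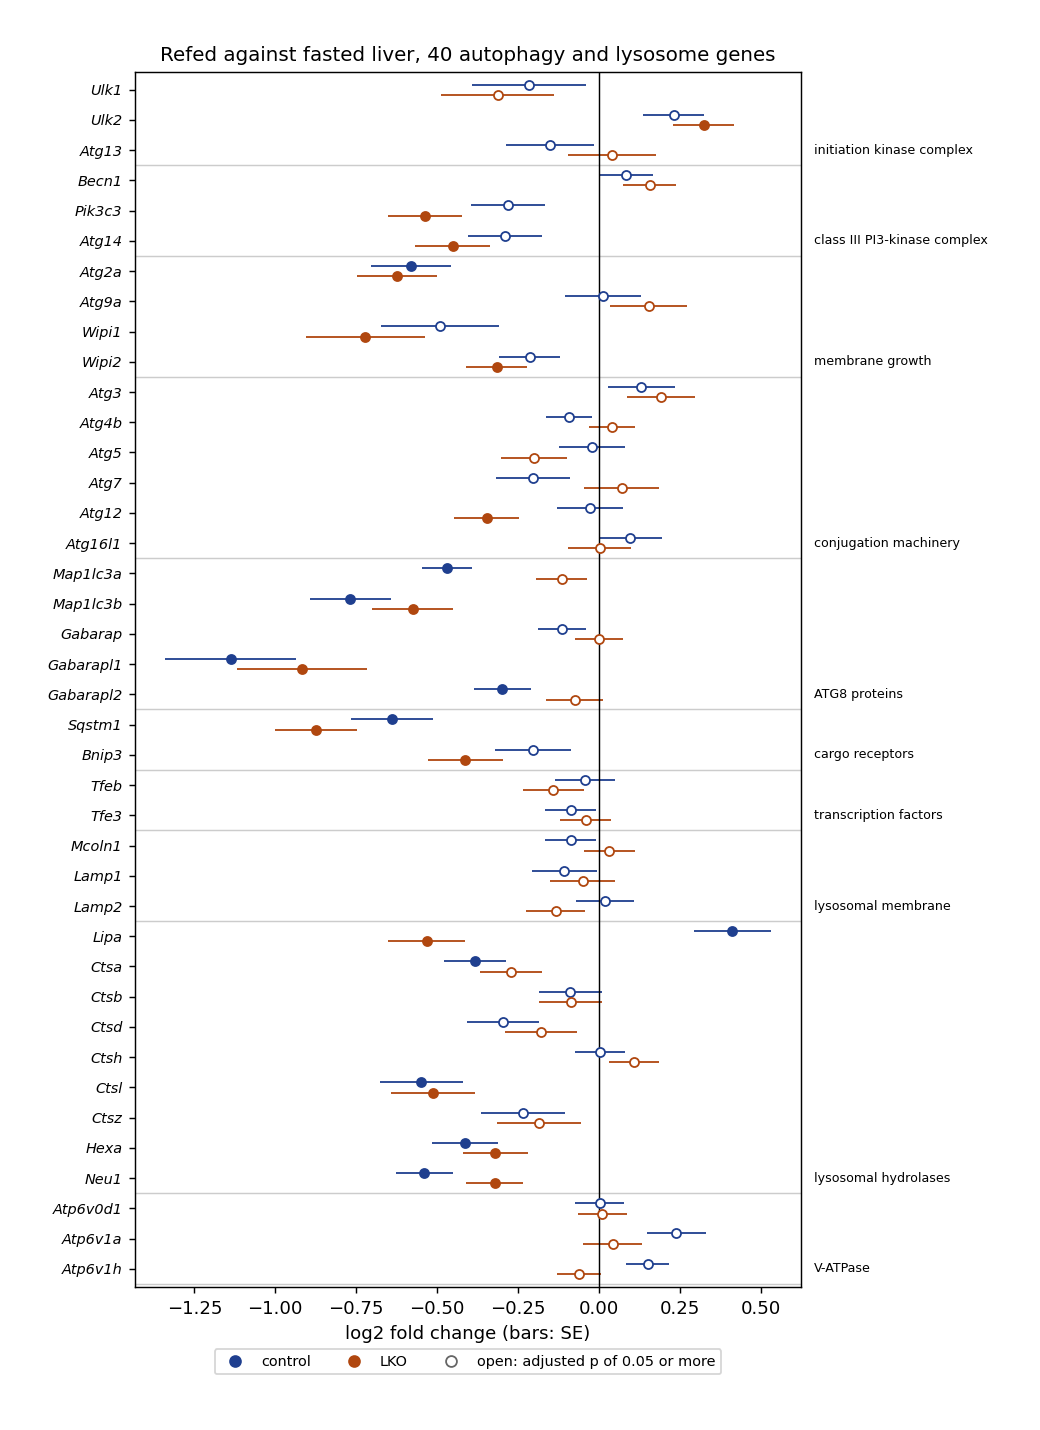
Log2 fold change of refed against fasted livers (bars, SE) for each of the 40 genes in control and LKO, grouped by role, with filled points for an adjusted p under 0.05. Most filled points lie left of 0, from Gabarapl1 at −1.14 in control to Gabarapl2 at −0.30, and Lipa lies right of 0 in control and left of 0 in LKO.

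The ATG8 proteins carry the lipid anchor of the autophagosome and bind cargo receptors, and 4 of the 5 fell in control and 2 of the 5 in LKO. Gabarapl1 (ENSMUSG00000030161, chromosome 6 from 129510123 to 129519309) had the largest fall. Control libraries had 793, 651, 595 and 658 CPM when fasted and 255, 192, 345 and 434 CPM when refed. The LKO libraries held 654, 589, 659.9 and 683 CPM when fasted and 266, 316, 445 and 343 CPM when refed. No refed library reached a fasted one, although the refed libraries spread widely. Gabarapl1 was 2.20-fold lower after refeeding in control (log2 fold change −1.14, SE 0.20, adjusted p = 0.00207) and 1.89-fold lower in LKO (−0.92, SE 0.20, adjusted p = 0.00472).

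Map1lc3b, the LC3 gene used most often to follow autophagy (ENSMUSG00000031812, chromosome 8 from 122317100 to 122325499), held 216, 207, 217 and 173 CPM in fasted control and 99.3, 108, 119 and 152 CPM in refed control. In LKO it held 197, 183, 217 and 197 CPM when fasted and 111, 145, 144 and 132 CPM when refed. The states did not overlap in either genotype (log2 fold changes −0.77, SE 0.13, adjusted p = 0.00127 and −0.58, SE 0.12, adjusted p = 0.00449). Its span overlaps that of Zcchc14 on the opposite strand, which averaged 25.4 CPM against 164 CPM for Map1lc3b, and the use of strand in counting is not given in the sources used here.

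Map1lc3a fell in control, from the fasted values above to 62.0, 60.1, 60.5 and 71.3 CPM (log2 fold change −0.47, SE 0.08, adjusted p = 0.00144). Refed LKO libraries held 60.4, 74.6, 66.2 and 61.1 CPM, close to the refed controls, and overlapped the fasted LKO libraries (−0.12, SE 0.08, adjusted p = 0.345). The difference between these 2 refeeding effects did not pass (0.35, SE 0.11, adjusted p = 0.13). Gabarapl2 held 61.7, 57.7, 57.1 and 51.5 CPM in fasted control and 47.98, 43.8, 42.8 and 51.05 CPM in refed control (−0.30, SE 0.09, adjusted p = 0.0298). In LKO it held 60.3, 55.7, 58.6 and 49.97 CPM when fasted and 50.9, 60.3, 52.7 and 49.6 CPM when refed, which overlapped (−0.07, SE 0.09, adjusted p = 0.606). The control call of Gabarapl2 was lost without S40, S41, S42, S48, S49 or S50 (adjusted p up to 0.0992) and with no filter on low counts (0.062). Gabarap itself ranged from 236 to 304 CPM and passed in no comparison. ATG8 genes resemble each other in sequence, and how reads shared by such copies were counted is not given in the sources used here.

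**Figure D5:**
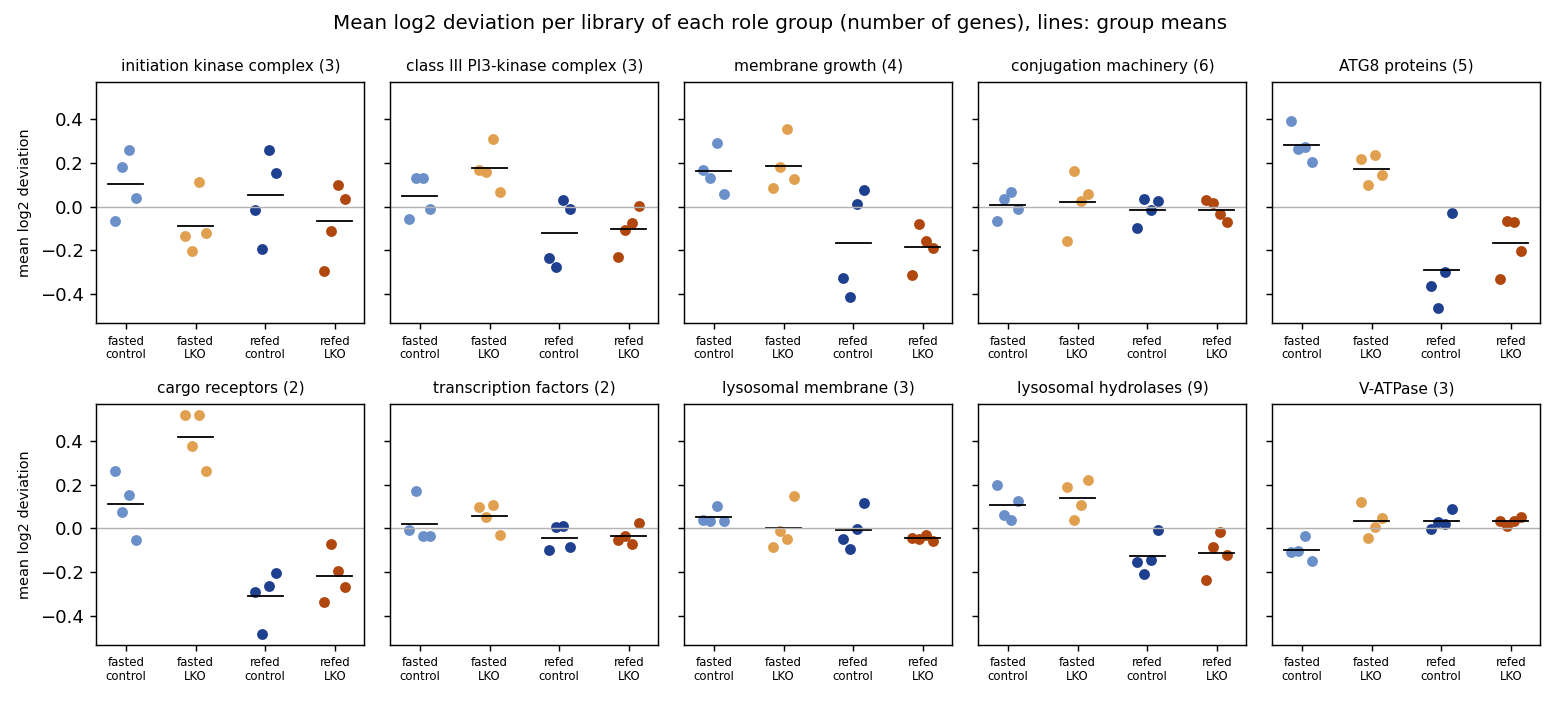
Mean log2 deviation of each role group in each library (points) and the group means (lines). A deviation is the log2 CPM of a gene minus its mean over the 16 libraries, averaged over the genes of the role. ATG8 proteins, cargo receptors and hydrolases lie above 0 in most fasted libraries and below 0 in all refed ones, and the conjugation machinery stays between −0.16 and 0.16.

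Among cargo receptors, Sqstm1 (ENSMUSG00000015837, chromosome 11 from 50090193 to 50101654) fell in both genotypes from the fasted values given above. Refed control libraries held 419, 369.7, 498 and 463 CPM and refed LKO libraries 423, 515, 532 and 457 CPM. All 8 refed libraries lay below all 8 fasted ones. Sqstm1 was 1.56-fold lower in control (log2 fold change −0.64, SE 0.13, adjusted p = 0.00397) and 1.83-fold lower in LKO (−0.87, SE 0.13, adjusted p = 2.88e-04). Bnip3, a receptor on mitochondria, held 148, 152, 164 and 127 CPM in fasted control, 136, 118, 119 and 139 in refed control, 168, 188, 207 and 139.6 in fasted LKO and 126, 150.4, 122 and 129 CPM in refed LKO. It fell in LKO (−0.41, SE 0.12, adjusted p = 0.0215) although refed S53 lay above fasted S47. The call was lost without S45, S46, S52, S54 or S55 (adjusted p up to 0.0724) and in the fit of only the groups compared (0.059). In control Bnip3 did not pass (−0.20, SE 0.12, adjusted p = 0.26).

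Of the 4 genes of membrane growth, Atg2a, a lipid transfer protein that feeds the growing membrane, fell in both genotypes. It held 85.7, 63.6, 78.2 and 72.2 CPM in fasted control and 42.4, 43.02, 54.9 and 60.3 CPM in refed control (log2 fold change −0.58, SE 0.12, adjusted p = 0.00604). The LKO libraries held 74.9, 65.8, 87.0 and 72.9 CPM when fasted and 44, 52.7, 51.1 and 47.2 CPM when refed (−0.62, SE 0.12, adjusted p = 0.00249). Neither genotype's states overlapped. Wipi1 held 10.7, 13.3, 15.1 and 10.7 CPM in fasted LKO and 6.40, 9.61, 7.48 and 6.84 CPM in refed LKO, and fell (−0.72, SE 0.18, adjusted p = 0.012). In control it held 9.68, 10.2, 13.2 and 11.7 CPM when fasted and 6.39, 6.00, 9.23 and 10.2 CPM when refed, where S51 overlapped the fasted range (−0.49, SE 0.18, adjusted p = 0.0806). Without S51 the control difference of Wipi1 passed (−0.62, adjusted p = 0.0337).

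Wipi2, its relative that recruits the conjugation complex, held 117, 101, 117 and 113 CPM in fasted LKO and 83.8, 90.7, 89.9 and 95.6 CPM in refed LKO and fell (−0.32, SE 0.09, adjusted p = 0.0291). This call was lost without S44, S46, S47, S52, S53 or S54 (adjusted p up to 0.093) and with no filter on low counts (0.068). In control Wipi2 held 100.1, 104, 107 and 96.2 CPM when fasted and 80.5, 73.0, 98.5 and 99.7 CPM when refed (−0.21, SE 0.09, adjusted p = 0.139). Atg9a, the scramblase of the seed vesicles, passed in no comparison.

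The class III kinase complex marks the forming membrane with phosphatidylinositol 3-phosphate. Its catalytic subunit gene Pik3c3 held 19.2, 18.6, 22.6 and 17.7 CPM in fasted LKO and 12.5, 13.3, 13.8 and 14.1 CPM in refed LKO, and fell without overlap (−0.54, SE 0.11, adjusted p = 0.0038). In control it held 15.04, 16.5, 16.2 and 16.9 CPM when fasted and 12.97, 10.3, 15.01 and 14.9 CPM when refed (−0.28, SE 0.11, adjusted p = 0.106). Atg14, which directs the complex to autophagy, held 14.4, 14.9, 16.2 and 12.9 CPM in fasted LKO and 9.06, 10.8, 10.8 and 12.0 CPM in refed LKO, and fell (−0.45, SE 0.11, adjusted p = 0.012). In control it held 13.4, 14.4, 14.98 and 12.7 CPM when fasted and 9.33, 11.5, 13.02 and 11.3 CPM when refed (−0.29, SE 0.11, adjusted p = 0.0978). Both genes thus passed in LKO alone, and the difference between the genotypes passed for neither (adjusted p = 0.45 for Pik3c3 and 0.658 for Atg14). Becn1, the third subunit gene, ranged from 36.3 to 48.99 CPM and did not pass.

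In the initiation complex Ulk2, a kinase that starts autophagy, was the only member that rose with refeeding in LKO. It held 31.7, 33.9, 39.0 and 32.4 CPM in fasted LKO and 41.8, 42.1, 43.5 and 44.1 CPM in refed LKO (0.32, SE 0.09, adjusted p = 0.0237), a call lost without S44, S47 or S55 (up to 0.0708). In control it held 32.9, 44.5, 42.7 and 41.4 CPM when fasted and 45.6, 43.9, 48.6 and 51.4 CPM when refed (0.23, SE 0.09, adjusted p = 0.103). Its paralogue Ulk1 had negative estimates in both genotypes that did not pass (−0.22 and −0.31). Atg13 held 54.8, 42.5, 72.0 and 59.9 CPM in refed control and 43.8, 49.5, 59.0 and 49.6 CPM in refed LKO and overlapped its fasted values.

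Of the 6 conjugation genes, Atg12 alone passed. Refed LKO libraries held 26.2, 26.4, 26.3 and 25.9 CPM, below all fasted LKO libraries (−0.35, SE 0.10, adjusted p = 0.0249). This call was lost without S47, S52 or S55 (up to 0.0808) and with no filter on low counts (0.057). Refed control libraries held 21.2, 24.6, 27.2 and 27.2 CPM, against 21.7 to 28.4 CPM when fasted (−0.03, SE 0.10, adjusted p = 0.89). Atg7, the enzyme that activates ATG8 proteins and ATG12, held 71.9, 65.9, 65.97 and 70.3 CPM in fasted control, 44.3, 68.2, 56.2 and 62.9 in fasted LKO, 61.1, 60.7, 54.9 and 61.4 in refed control and 60.3, 61.6, 70.4 and 50.9 CPM in refed LKO. It passed in no comparison, and neither did Atg3, Atg4b, Atg5 or Atg16l1, whose refeeding log2 fold changes lay between −0.20 and 0.19.

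Of the 9 hydrolases 4 fell in control (Ctsa, Ctsl, Hexa and Neu1) and 4 in LKO (Lipa, Ctsl, Hexa and Neu1). Ctsl, a cysteine protease, held 594, 448, 488 and 590.0 CPM in fasted control and 316, 358, 361 and 415 CPM in refed control (−0.55, SE 0.13, adjusted p = 0.01). The LKO libraries held 514, 486, 556 and 638 CPM when fasted and 313, 372, 444 and 409 CPM when refed (−0.51, SE 0.13, adjusted p = 0.0112). No refed library of either genotype reached its fasted group. Neu1, the lysosomal sialidase, held 71.7, 67.2, 66.6 and 67.6 CPM in fasted control and 44.5, 40.1, 46.8 and 56.7 CPM in refed control (−0.54, SE 0.09, adjusted p = 0.0013). It held 66.7, 64.9, 67.7 and 60.4 CPM in fasted LKO and 48.2, 53.6, 52.03 and 54.01 CPM in refed LKO (−0.32, SE 0.09, adjusted p = 0.0182), again without overlap. The LKO call of Neu1 was lost without S52 (adjusted p = 0.0637).

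Ctsa, the carboxypeptidase that protects the sialidase in a shared complex, held 279, 252, 228 and 256 CPM in fasted control and 189, 182, 189 and 218 CPM in refed control (−0.38, SE 0.10, adjusted p = 0.0145). In LKO it held 208, 217, 205 and 243 CPM when fasted and 153, 184, 200.04 and 185 CPM when refed, which did not overlap and did not pass (−0.27, SE 0.10, adjusted p = 0.0603). The control call was lost without S40 (adjusted p = 0.0539), and the LKO difference passed without S54 (−0.32, adjusted p = 0.0426). The span of Ctsa overlaps Pltp on the opposite strand, which averaged 37.2 CPM against 212 CPM for Ctsa. Hexa, the alpha subunit of beta-hexosaminidase, held 113, 102, 98.3 and 99.9 CPM in fasted control and 76.3, 69.5, 71.8 and 92.8 CPM in refed control (−0.41, SE 0.10, adjusted p = 0.0123). In LKO it held 115, 98.9, 105 and 123 CPM when fasted and 81.6, 89.2, 99.9 and 83.6 CPM when refed. There the states overlapped (−0.32, SE 0.10, adjusted p = 0.0361), and the call was lost without S44, S47, S52, S53 or S55 (up to 0.112). It was also lost with no filter on low counts (0.069) and in the fit of only the groups compared (0.06). Ctsb, Ctsd, Ctsh and Ctsz passed in neither genotype, with log2 fold changes from −0.29 to 0.11.

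Lipa moved in opposite directions in the 2 genotypes. From fasted to refed livers it rose in control from 155 ± 10.1 to 206 ± 7.50 CPM (log2 fold change 0.41, SE 0.12, adjusted p = 0.0267). In LKO it fell from 301 ± 62.0 to 208 ± 14.1 CPM (SD, n = 4; −0.53, SE 0.12, adjusted p = 0.00512). The control libraries did not overlap between states. In LKO fasted S45 at 221 CPM lay just below refed S53 at 223 CPM. The rise in control was lost without S40, S42, S43, S48 or S50 (adjusted p up to 0.0844), while the fall in LKO held in each of the 15 alternative fits.

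The V-ATPase subunits passed in neither refeeding comparison. Atp6v1a held 38.2, 38.5, 42.6 and 44.4 CPM in refed control, all above fasted control (0.24, SE 0.09, adjusted p = 0.0841), and 41.5, 34.5, 39.8 and 41.2 CPM in refed LKO (0.04, SE 0.09). Atp6v1h held 48.8, 51.3, 50.7 and 52.3 CPM in refed control, also above fasted control (0.15, SE 0.07, adjusted p = 0.139), and 53.3, 53.4, 56.7 and 53.5 CPM in refed LKO (−0.06, SE 0.07). The refed LKO libraries overlapped the fasted ones for both.

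Whether the genotype effect differed between the feeding states was tested directly as an interaction. Lipa passed, with a genotype effect lower by 0.94 on the log2 scale in the refed state (SE 0.17, adjusted p = 0.0261), and it was the only member to do so. Over all genes tested 0.538% were called in either direction. An unadjusted p under 0.05 was found for 4 of the 40 members, beside 2397 of the 14488 genes tested. The call was lost without S40 (adjusted p = 0.066), S48 (0.0625), S50 (0.0512) or S55 (0.0631), with estimates from −1.06 to −0.86 over the 22 alternative fits. For the 7 genes that fell with refeeding in both genotypes the interaction did not pass, with 5 larger in size in control and 2 in LKO.

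Few cell type markers were called with refeeding. In the control refeeding comparison Cd9 of the recruited macrophage list was called lower and Lrat and Reln of the stellate cell list higher, with stellate sums of 127 to 203 CPM when fasted and 154 to 193 CPM when refed. In LKO Krt19 of the cholangiocyte list was called lower, with sums of 6.05 to 45.9 CPM when fasted and 7.14 to 9.26 CPM when refed. Without S44, the library with the 45.9 CPM, 12 members fell in LKO. Hepatocyte markers had 0 of 8 called by edgeR with refeeding in either genotype (2 in control and 0 in LKO at an unadjusted p under 0.05). Their part in the members' changes was not tested.

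Of the 14 genes that fell with refeeding in some genotype and had a promoter window, 4 held the E-box CACGTG, as did 8 of the other 18 genes with a window. The 4 that fell were Atg14, Bnip3, Ctsa and Ctsl, while Gabarapl1, Map1lc3b and Sqstm1, printed above, fell and hold none. Lamp1, with 4 copies, passed in no comparison. The part of the E-box in these changes was not tested.

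For context, 6 further lists of genes in the same pathways were counted in the same fit, and are given as counts. The shares called over all genes tested were 5.75% higher and 6.48% lower in fasted LKO. In refed LKO they were 2.28% higher and 1.35% lower. With refeeding they were 7.79% higher and 7.65% lower in control, and 9.28% higher and 8.78% lower in LKO. Among 23 other genes of autophagy machinery 1 was called lower in fasted LKO (Wdr45b, −0.44, adjusted p = 0.0104), and refeeding gave 1 higher and 2 lower in control and 2 higher and 2 lower in LKO. Uvrag, a partner of the class III kinase, rose with refeeding in control (0.45, adjusted p = 0.00763) and LKO (0.56, adjusted p = 0.00117), against the direction of Pik3c3 and Atg14. Of 15 other autophagy receptors 3 fell with refeeding in control and 5 in LKO, with none higher. Retreg1, the receptor for endoplasmic reticulum, fell by 0.82 in control (adjusted p = 6.5e-04) and by 1.18 in LKO (adjusted p = 2.11e-05), and Calcoco1 fell by 0.83 (adjusted p = 0.00842) and 1.37 (adjusted p = 1.95e-04). In fasted LKO 3 of these receptors were higher, Tax1bp1 (0.30), Optn (0.42) and Bcl2l13 (0.37), and 1 was lower.

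Of 37 other hydrolases tested, 9 were lower and 0 higher in fasted LKO, beside 6.48% lower and 5.75% higher over all genes tested. The 9 were led by Gm2a (87.2 ± 3.97 against 50.2 ± 11.3 CPM, log2 fold change −0.80, adjusted p = 9.09e-04), Glb1 (−0.66, adjusted p = 0.00109) and Naglu (−0.53, adjusted p = 0.00192), which act on gangliosides, galactosides and heparan sulfate. Gm2a, the activator that presents its lipid to beta-hexosaminidase, was also lower in refed LKO (−0.52, adjusted p = 0.031). With refeeding 7 fell and 1 rose in control, and 4 fell and 1 rose in LKO. Arsa, which removes sulfate from sulfatides, fell in both (−0.99 in control and −0.71 in LKO, adjusted p = 0.00306 and 0.0150), as did the cathepsin gene Ctsf (−0.44 and −0.33, adjusted p = 0.00324 and 0.0114). The member Lipa thus rose in fasted LKO while every called hydrolase of the further list was lower there.

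Among 18 other genes of the lysosomal membrane and sorting, Grn, which encodes progranulin, stood at 293 ± 15.4 CPM in fasted control and 441 ± 69.9 CPM in fasted LKO (SD, n = 4; log2 fold change 0.59, adjusted p = 0.00161). Grn fell with refeeding in control (−0.40, adjusted p = 0.0141) and LKO (−0.69, adjusted p = 2.88e-04). Of 15 other V-ATPase genes Atp6v1b2 alone was higher in fasted LKO (0.45, adjusted p = 0.00265), beside the member Atp6v1h, and 0 passed with refeeding in control by edgeR (4 at an unadjusted p under 0.05). With refeeding in LKO 3 of the 15 rose and 1 fell, among them Atp6v1b2 (−0.45, adjusted p = 0.00157) and Atp6v0a1 (0.31, adjusted p = 0.00458). Of 33 genes of mTORC1, AMPK and MiT/TFE control 3 were higher and 1 lower in fasted LKO, among them Mtor (0.66, adjusted p = 0.0112) and Lamtor1 (−0.40, adjusted p = 0.00696). With refeeding 1 of the 33 rose and 2 fell in control, and 1 rose and 6 fell in LKO. The gene that rose was Prkaa2, a catalytic subunit of AMPK, in control (0.72, adjusted p = 1.63e-04) and Lamtor1 in LKO (0.39, adjusted p = 0.00491). Flcn, which governs TFEB and TFE3 at the lysosome, was lower after refeeding in control (−0.58, adjusted p = 0.0189) and LKO (−0.91, adjusted p = 8.66e-04). In all 6 lists 0 genes passed the interaction by edgeR. At an unadjusted p under 0.05 there were 1 to 7 per list, beside 2397 of the 14488 genes tested. In the refed genotype comparison Gm2a was the only gene of the 6 lists called.

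The authors' deposited table calls 6 members in the fasted genotype comparison, 2 in the refed one, 12 with refeeding in control and 15 in LKO, at an adjusted p under 0.05. Of the members called here 5 of 5, 1 of 2, 11 of 11 and 15 of 15 appear there as calls too, with the same sign. Atg13 when fasted, Ctsb when refed and Ctsd with refeeding in control are called in the authors' deposited table and not here. The call absent from the authors' deposited table was Tfeb in the refed state, with an adjusted p there of 0.0635.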

How the data were processed

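RNA was measured in 16 liver libraries, 4 per group, built from poly-A RNA with random hexamers and dUTP per the labels' protocols. The authors deposited 4 tables, each comparing 2 groups of 4 libraries, with raw read counts per gene, and these were joined on gene ID to 25803 genes. A count present in several tables was the same in each (0 differed), and 3148 genes had no row for some library and were set to 0 there. The submitters' processing notes name HISAT2 2.0.5 and the build mm39. The counting tool, its use of strand and the annotation are not given in the sources used here. The deposited tables also hold the authors' log2 fold changes and p-values, used only for the closing comparison of the report, and gene lengths in bases. Of the remaining columns, 64 give further values per library and stayed out.

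The test was edgeR 4.0.16 under R 4.3.3 (filterByExpr, 14488 genes tested; TMM factors 0.941 to 1.07; quasi-likelihood test over all 16 libraries; Benjamini-Hochberg adjustment over all genes tested, threshold 0.05). The standard error is the absolute log2 fold change over the square root of F. Group membership came from table headings and column names. Depth of 14721601 to 24618230 counts left every member at 100 counts or more. Alternatives were RLE size factors, upper quartile scaling, no filter, a mean of at least 5 CPM, DESeq2 1.42.0, limma-voom (limma 3.58.1), only the groups compared, and leaving out each library. The scripts were tested on simulated data.

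The members and lists were chosen with earlier results of these data known. Values in every library are given for members called in some comparison and for the pair of largest fold changes in each role. From the other lists at most 3 called genes per list and comparison are named, by smallest p. A gene this rule named is not reported here. Promoter windows are RefSeq's, of GRCm38.p6, and were not set against coordinates of the tables.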

Additional observations from a re-analysis of the deposited data

Results flagged for a closer look

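Of 104 sets of 4 libraries checked (the 26 genes given by library in each of the 4 groups), 4 held a library set apart from the other three by a gap above Dixon's critical share of their range, and chance gives about 1 in 20. Atg7 stood at 54.9 CPM in refed control S50, against 60.7 to 61.4 CPM in the others. Sqstm1 stood at 831 CPM in fasted control S40, against 622 to 646 CPM. Atp6v1a stood at 44.3 CPM in fasted LKO S47, against 35.9 to 36.6 CPM. Atp6v1h stood at 56.7 CPM in refed LKO S54, against 53.3 to 53.5 CPM. The effect of LKO on Lipa differed between the feeding states, with a log2 difference of −0.94 (refed minus fasted).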

How the results depend on the processing

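No paired analysis was possible because the columns carry no replicate numbers, so the planned block on replicate number was not run. Of 34 calls of a member in a comparison, 20 held under every alternative run, 14 were lost under at least 1 and 0 reversed direction. Members called lower in fasted LKO numbered 2 under RLE size factors, the filter at a mean of 5 CPM, DESeq2, limma-voom and with only the groups compared. Members called lower in refed LKO numbered 0 under RLE size factors, with no filter and with only the groups compared, and 2 with DESeq2. Over all genes the refed genotype comparison called 924 with DESeq2, and the interaction called 197 with the 5 CPM filter and 467 with DESeq2. The cause of these moves was not tested. Scaling by RLE or upper quartile moved the median of all genes by at most 0.02 on the log2 scale.

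Leaving out each library in turn gave 1048 (without S44) to 1985 genes called in fasted LKO, and 1 to 2 members lower (2 without S40 or S47). In refed LKO it gave 197 (without S48) to 517 genes, 300 without S50 and without S53, 293 without S54 and 225 without S55, with 0 to 1 members higher and 0 lower in each fit. Refeeding in control gave 1220 (without S40) to 2483 genes, with 1365 without S50, and 0 to 1 members higher. Refeeding in LKO gave 0 to 1 members higher and 9 to 13 lower. The interaction gave 8 (without S48) to 282 (without S49) genes, 180 without S45, and 0 to 1 members lower. It gave 16 to 43 without each of S40, S41, S42, S43, S44, S46, S50, S52, S53, S54 and S55.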
